A study of Homo sapiens with 24 samples.

Results

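The response of TALL-1 cells to the compound NVS-ZP7-3 was set against the response of RPMI-8402 cells, gene by gene, as a difference of differences. A response is the mean log2 expression after NVS-ZP7-3 minus the mean after DMSO in the same line. The difference is the response of TALL-1 minus the response of RPMI-8402, so a positive value means that the gene moved higher in TALL-1 than in RPMI-8402. The members were the 7972 genes whose probe set, the brightest of the gene over all arrays, averaged log2 6 or more in the DMSO arrays of both lines, out of 10661 genes tested and 19775 genes to which at least 1 probe set belonged alone. This level left room for a fall in either line. The members nearest above the threshold were PPP2R3A at 6.007 and RGL2 at 6.011 in the line with the lower level, and the genes nearest below it were POLE at 5.998 and MAD1L1 at 5.999.

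TALL-1 and RPMI-8402 are established human lines of T-cell acute lymphoblastic leukaemia (T-ALL), a cancer of immature T cells. The groups were TALL-1 with NVS-ZP7-3, TALL-1 with DMSO, RPMI-8402 with NVS-ZP7-3 and RPMI-8402 with DMSO, with 3 arrays each, so 12 of the 24 arrays of the series. All groups were treated for 16 h and held the solvent DMSO at 0.5%, and the dose of NVS-ZP7-3 is not given in the labels. Nothing in the labels tells whether the 3 arrays of a group stand for 3 cultures, and p-values then reflect only array-to-array spread, which may be technical. Each line is a single cell line, so traits of a line other than its name cannot be told apart from it.

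NVS-ZP7 compounds are known to block ZIP7, the product of SLC39A7, which lets zinc out of the endoplasmic reticulum (ER). Loss of this export disturbs protein folding in the ER, and the cell answers through sensors of unfolded protein that raise chaperones, ER-associated degradation and the ATF4 and CHOP programme. Many T-ALL cells depend on NOTCH1, a receptor that matures in the ER and drives MYC and growth genes.

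Replicate arrays correlated at 0.993 to 0.998 over the members. Of 14 measured T lineage markers, 12 averaged log2 6 or more in both groups of TALL-1 (CD5 was under 3), and 10 with NVS-ZP7-3 and 11 with DMSO did so in RPMI-8402 (CD1A was under 3). A pair of arrays stood apart. TALL-1 NVS-ZP7-3 replicate 2 carried transcripts of other lines, with 25 of 120 genes bright in P12-ICHIKAWA at log2 4 or more, against 0 on the other TALL-1 arrays. RPMI-8402 DMSO replicate 3 carried blood transcripts, with HBB at 14.65, LYZ at 12.54 and S100A8 at 9.61, and HBB also reached 10.48, 8.63 and 12.99 on the NVS-ZP7-3 arrays of RPMI-8402 and 9.42 on DMSO replicate 1. In TALL-1, HBB was at 7.96 and LYZ at 9.04 on NVS-ZP7-3 replicate 1, and LYZ was at 8.62 on DMSO replicate 2. The ACTB 3' to 5' probe difference, a sign of RNA integrity or labelling, was higher with NVS-ZP7-3 in both lines, at 2.398 to 2.623 against 1.964 to 2.075 with DMSO in TALL-1, and at 2.285 to 2.604 against 2.058 to 2.198 with DMSO in RPMI-8402. The GAPDH 3' to 5' probe difference moved little. It was 0.208 to 0.278 with NVS-ZP7-3 against 0.218 to 0.265 with DMSO in TALL-1. In RPMI-8402 it was 0.136 to 0.213 with NVS-ZP7-3 against 0.138 to 0.142 with DMSO. The part of these signs in the results was not tested beyond the alternative fits given beside them.

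Members called in both lines mostly moved the same way, while many others were called in a single line. In TALL-1, 3863 members changed, against 41.9% of all tested genes: 1955 rose (24.5%, against 22.3%) and 1908 fell (23.9%, against 19.6%). In RPMI-8402, 3171 members changed, against 36.6% of all tested genes: 1284 rose (16.1%, against 15.1%) and 1887 fell (23.7%, against 21.5%). Each array measured the RNA of a whole culture, so fewer cells of a kind and less RNA per cell cannot be told apart. Both responses were called for 1998 members (25.1%), against 20.5% of all tested genes, and 1877 of these (93.9%) had the same direction. Among all tested genes, 2043 of the 2186 called in both lines had the same direction. Across the 7972 members, which are not independent replicates, the responses correlated at Pearson 0.585 and Spearman 0.562. The responses share no array.

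The difference itself was called for 1824 members (22.9%), against 23.6% of all tested genes. It was above 0 for 1124 members, against 14.9% of all tested genes, and below 0 for 700, against 8.7%. The median difference of all members was 0.05 with a median standard error (SE) of 0.12, with a 5th percentile of -0.53 and a 95th percentile of 0.60. Centring each array on its median moved the difference by -0.06 and turned the split to 862 members above 0 and 941 below 0, so the excess of positive differences depends on the scale. For 172 members the difference was 1 or more in size, which is a 2-fold difference of responses.

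**Figure D1:**
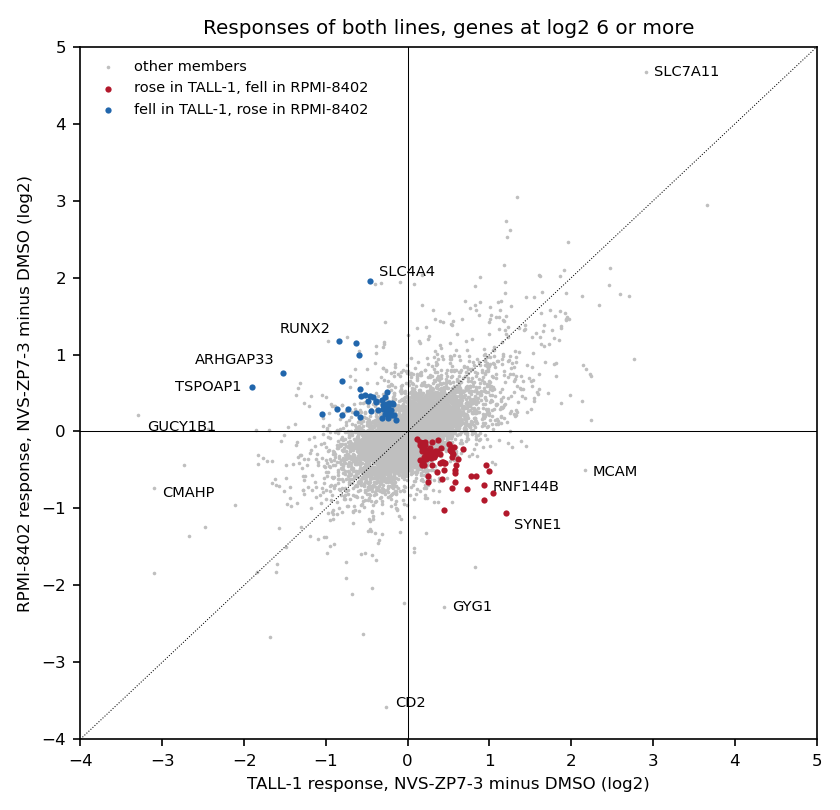
Response of each of the 7972 members in TALL-1 (x axis) and in RPMI-8402 (y axis), as NVS-ZP7-3 minus DMSO in log2, with the 77 genes that rose in TALL-1 and fell in RPMI-8402 in red, the 44 with the reverse pattern in blue and the line of equal responses dotted. Most members lie along the dotted line, and SLC4A4, TSPOAP1 and SYNE1 lie far out among the opposite movers.

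Opposite movement was uncommon. Of the 1998 members called in both lines, 121 (6.06%) moved in opposite directions, for which the calls of both responses all but fix a call of the difference. They were 77 genes that rose in TALL-1 and fell in RPMI-8402 (0.854% of all tested genes had this pattern) and 44 genes that fell in TALL-1 and rose in RPMI-8402 (0.488%). In 68 of the 77 and in 37 of the 44, the NVS-ZP7-3 and DMSO arrays did not overlap in either line. Genes picked for calls in both lines tend to have separate arrays, and the share over all members is not given here. Most shifts were small: the median response of the 77 was 0.34 in TALL-1 and -0.33 in RPMI-8402, and that of the 44 was -0.38 in TALL-1 and 0.35 in RPMI-8402. Both responses reached 0.5 in size in 12 of the 77 and 7 of the 44, and both reached 1 in SYNE1 alone. The genes given first below were picked among those without overlapping arrays, so that their separation restates the rule.

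With the ACTB 3' to 5' measure entered in the model, 24 and 15 members met the opposite rule in place of 77 and 44, and 31 of the 121 kept both calls. This measure did not overlap between NVS-ZP7-3 and DMSO arrays in either line, so the fit cannot fully separate it from treatment. Of the genes given below, those that kept both calls in that fit were RNF144B, RIDA, FAM107B, MXI1, NFIA, NOPCHAP1, MRPL40, MRPS30, RSL1D1, JAK3 and SLA2 of the first kind and TSPOAP1, GRK3, SMIM13, ATP2B4, GABPB1-AS1, LOC102724851, IKZF2, LZTFL1 and PMS2P2 of the second kind, and the others lost one or both. The signs of both responses stayed opposite in all 121 in that fit and in every alternative other than those given next. With the mean of all probe sets of a gene they stayed so in 114 of 119, and 77 kept both calls. With the brightest probe set over the DMSO arrays they stayed so in 120 of 121. Fits that changed only the filter, the prior, the block or the lines used left the responses unchanged, so no sign could turn there. Of the 121, 88 kept both calls with no filter on tested genes and 81 with the arrays of both lines alone. Without the pair of arrays that stood apart, the counts were 58 and 27, and 73 of the 121 kept both calls. Leaving out TALL-1 DMSO replicate 1 gave 123 and leaving out TALL-1 NVS-ZP7-3 replicate 3 or RPMI-8402 NVS-ZP7-3 replicate 1 gave 27 and 29 for the second kind.

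SYNE1 encodes nesprin-1, which ties the nuclear envelope to the cytoskeleton. In TALL-1 it had log2 values of 7.60, 7.62 and 7.18 with NVS-ZP7-3, against 6.82, 6.23 and 5.76 with DMSO. The RPMI-8402 values were 7.88, 8.20 and 7.68 with NVS-ZP7-3, against 9.06, 8.99 and 8.88 with DMSO. All NVS-ZP7-3 arrays were above all DMSO arrays in TALL-1 and below them in RPMI-8402, so that the lines, far apart with DMSO, came close with NVS-ZP7-3. The responses were 1.20 ± 0.28 (SE, n = 3 arrays per group, adjusted p = 0.00175 by limma) and -1.06 ± 0.28 (adjusted p = 0.00561 by limma), a 2.3-fold rise and a 2.08-fold fall. With the ACTB 3' to 5' measure in the model the response in TALL-1 was 0.33 and lost its call (adjusted p = 0.551 by limma), while that in RPMI-8402 was -1.60.

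RNF144B, an E3 ubiquitin ligase, had 10.10, 10.02 and 10.08 with NVS-ZP7-3 in TALL-1, against 8.99, 9.18 and 9.21 with DMSO. In RPMI-8402 it had 8.07, 7.48 and 7.25 with NVS-ZP7-3, against 8.29, 8.32 and 8.85 with DMSO. The groups did not overlap in either line, and the lines moved apart, with a difference of responses of 1.82 ± 0.23 (SE, adjusted p = 1.12e-05 by limma).

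RIDA, an enzyme that clears reactive imines, rose by 0.72 in TALL-1 and fell by 0.75 in RPMI-8402. GRN, which encodes the secreted lysosomal protein progranulin, rose by 0.83 in TALL-1 and fell by 0.58 in RPMI-8402. LIAT1 rose by 0.93 and FAM107B by 0.77 in TALL-1, and they fell by 0.70 and by 0.58 in RPMI-8402. These genes were higher in TALL-1 than in RPMI-8402 with NVS-ZP7-3 except GRN, at 7.02 ± 0.13 against 7.08 ± 0.18 (SD, n = 3 each).

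MXI1 encodes a partner of MAX that opposes MYC on its binding sites. It had 12.28, 12.35 and 12.42 with NVS-ZP7-3 in TALL-1, against 11.80, 11.77 and 11.73 with DMSO. RPMI-8402 arrays read 10.69, 10.87 and 10.92 with NVS-ZP7-3, against 11.29, 11.18 and 11.61 with DMSO. The groups did not overlap in either line, and the difference of responses was 1.11 ± 0.11 (SE, adjusted p = 9.12e-07 by limma). The highest RPMI-8402 DMSO value of MXI1 was on replicate 3, the array with blood transcripts. The same held for RNF144B, NABP1, RIDA and THRA, which is given below. Without that array THRA did not meet the opposite rule, while the others did. MYC itself fell by 1.0 in TALL-1 and fell by 1.37 in RPMI-8402, and the difference was not called (adjusted p = 0.0772 by limma).

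The other named transcription factors that rose in TALL-1 and fell in RPMI-8402 were THRA, the thyroid hormone receptor alpha, with responses of 0.99 and -0.51, and NFIA, a factor of the nuclear factor I family, with 0.95 and -0.44. THRA, and below VAMP1, LINC01550 and DGKA, did not meet the opposite rule without the pair of arrays that stood apart. NFIA was far lower in TALL-1, at 7.87 ± 0.19 against 11.83 ± 0.09 in RPMI-8402 with DMSO (SD, n = 3 each).

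POP1, a subunit of the ribonucleases P and MRP, had responses of 0.45 in TALL-1 and -1.03 in RPMI-8402. THG1L, which adds the extra guanosine of histidine tRNA, had 0.58 and -0.50, and NOPCHAP1, a chaperone of box C/D snoRNP assembly, had 0.59 and -0.43. NABP1, which binds single-stranded DNA in repair, had 0.58 and -0.66, and UBXN8, an ER membrane protein that recruits the ATPase VCP, had 0.41 and -0.62. UBXN8 did not meet the opposite rule in 5 of the 25 alternative fits.

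Further genes of the 77 were picked after their values were seen. TFB1M, which methylates mitochondrial ribosomal RNA, had responses of 0.18 in TALL-1 and -0.44 in RPMI-8402. The mitochondrial ribosomal proteins MRPL40 and MRPS30 had 0.22 and 0.15 in TALL-1, and -0.36 and -0.37 in RPMI-8402. RSL1D1, a nucleolar protein of ribosome maturation, had 0.43 and -0.39, and NOB1, the nuclease that finishes 18S ribosomal RNA, had 0.25 and -0.66, with arrays that overlapped in TALL-1. JAK3, the kinase of the common gamma chain of cytokine receptors, had 0.29 and -0.43. SLA2 and PAG1, adaptors that dampen signals of the T cell receptor, had 0.56 each in TALL-1, and -0.20 and -0.29 in RPMI-8402. RRAGC and NPRL2, which pass amino acid supply to and from mTORC1, had 0.37 and 0.27 in TALL-1, and -0.11 and -0.22 in RPMI-8402.

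**Figure D2:**
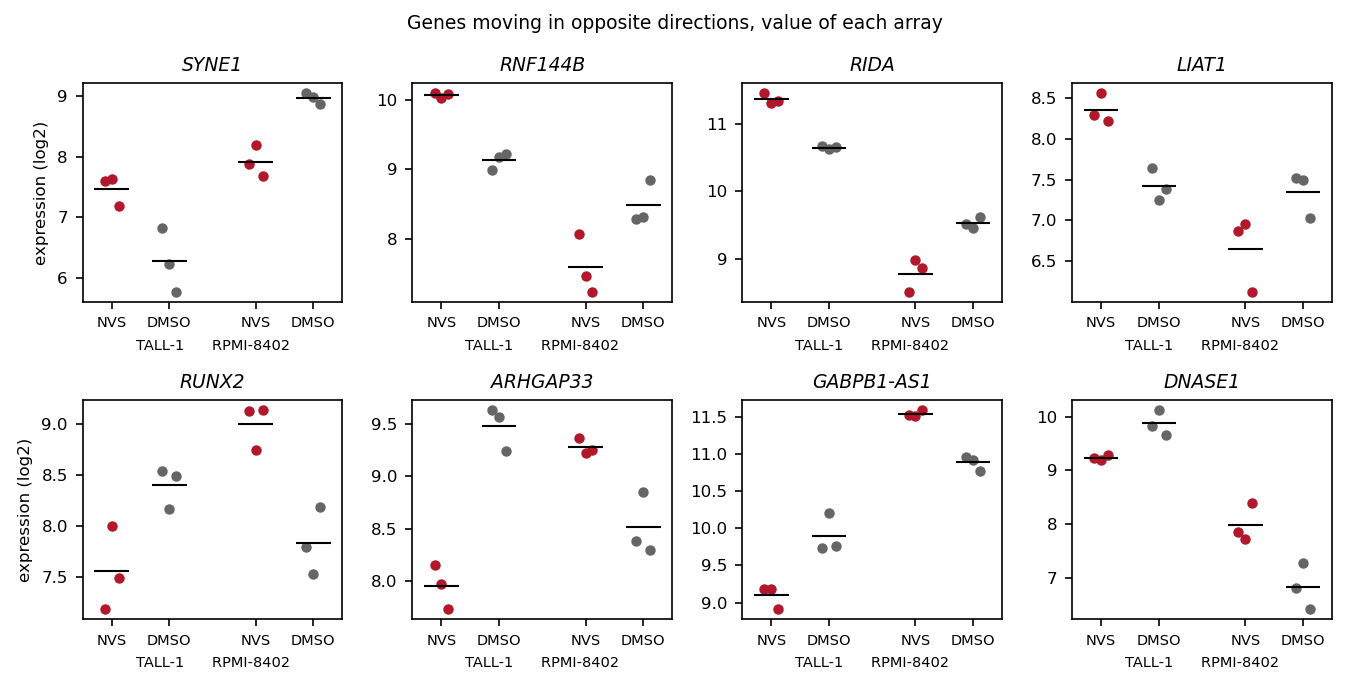
Log2 value of each array for the first 4 named genes of each kind of opposite movement, with NVS-ZP7-3 (NVS, red) left of DMSO (grey), TALL-1 left of RPMI-8402 and bars at the means of 3 arrays. Separate red and grey points with a turned order, as in SYNE1 (top left) and RUNX2 (bottom left), are what these genes were picked for, and the sizes of the shifts and the DMSO levels differ between them.

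Among the 44 genes that fell in TALL-1 and rose in RPMI-8402, RUNX2 encodes a Runt family transcription factor known from bone and from T cell lymphoma models in the mouse. It had 7.18, 8.0 and 7.49 with NVS-ZP7-3 in TALL-1, against 8.54, 8.17 and 8.49 with DMSO. Its values in RPMI-8402 were 9.13, 8.75 and 9.14 with NVS-ZP7-3, against 7.79, 7.52 and 8.19 with DMSO. The NVS-ZP7-3 and DMSO arrays did not overlap in either line. Mean RUNX2 was higher in TALL-1 with DMSO, where the arrays of the lines overlapped, and higher in RPMI-8402 with NVS-ZP7-3. The responses were -0.84 ± 0.17 (SE, adjusted p = 0.000519 by limma) and 1.17 ± 0.17 (adjusted p = 2.5e-05 by limma), and RUNX2 did not meet the opposite rule with the mean of all its probe sets or with the ACTB measure in the model.

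Of 15 T lineage and T-ALL transcription factors among the members, 2 were opposite movers, GATA3 and IKZF2, both of this kind. GATA3, a factor that early T cells need, had 11.21, 11.34 and 11.42 with NVS-ZP7-3 in TALL-1, against 12.22, 12.10 and 12.07 with DMSO. The RPMI-8402 values were 10.48, 10.58 and 10.56 with NVS-ZP7-3, against 10.38, 10.32 and 10.27 with DMSO. GATA3 thus fell by 0.81 in TALL-1 and rose by 0.22 in RPMI-8402, and 2 further probe sets of GATA3 had the same signs. With the ACTB measure in the model the rise in RPMI-8402 was not called (adjusted p = 0.0698 by limma).

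IKZF2 encodes Helios, an Ikaros family factor of T cells. It had 12.12, 12.19 and 12.19 with NVS-ZP7-3 in TALL-1, against 13.06, 13.03 and 13.02 with DMSO. In RPMI-8402 it had 13.19, 12.98 and 12.95 with NVS-ZP7-3, against 12.81, 12.78 and 12.66 with DMSO. The fall in TALL-1 was 1.83-fold and the rise in RPMI-8402 1.22-fold, and the difference was -1.16 ± 0.08 (SE, adjusted p = 7.08e-09 by limma).

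SLC4A4, a sodium bicarbonate cotransporter, had the largest rise in RPMI-8402 of the 44 genes. In TALL-1 it had 7.34, 7.45 and 7.38 with NVS-ZP7-3, against 7.93, 7.82 and 7.78 with DMSO. RPMI-8402 arrays read 8.31, 8.25 and 8.10 with NVS-ZP7-3, against 5.92, 6.64 and 6.21 with DMSO. It thus fell 1.37-fold in TALL-1 and rose 3.9-fold in RPMI-8402. With the ACTB measure in the model the fall in TALL-1 lost its call (adjusted p = 0.0891 by limma).

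TSPOAP1, a binding partner of the outer mitochondrial membrane protein TSPO, had the largest fall in TALL-1 of the 44 genes. It had 6.36, 6.54 and 6.17 with NVS-ZP7-3 in TALL-1, against 8.21, 8.16 and 8.39 with DMSO. Its values in RPMI-8402 were 9.47, 9.20 and 9.04 with NVS-ZP7-3, against 8.66 on each DMSO array. The fall was 3.73-fold and the rise 1.49-fold, and both calls held in all 25 alternative fits.

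ARHGAP33, a GTPase-activating protein, fell by 1.52 in TALL-1 and had a response of 0.76 in RPMI-8402. DNASE1, the secreted DNase I, had -0.64 and 1.15. GRK3, a kinase that turns off G protein-coupled receptors, had -0.57 and 0.46, and DGKA, which removes diacylglycerol downstream of the T cell receptor, had -0.32 and 0.41. ATP2B4, a calcium pump of the plasma membrane, had -0.73 and 0.30, and IGF2R, the receptor that sorts enzymes to lysosomes, had -0.39 and 0.39. VAMP1, a vesicle fusion protein, had -0.46 and 0.46, and SMIM13, a small membrane protein, had -0.39 and 0.40. SMIM13 varied little, with an SD of at most 0.03 in each group. VAMP1 did not meet the opposite rule in 10 of the 25 alternative fits, DGKA in 5, and DNASE1 and IGF2R in 3 each. SMIM13 and IGF2R did not meet it with the mean of all probe sets.

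Non-coding transcripts of this kind were GABPB1-AS1, with responses of -0.81 in TALL-1 and 0.65 in RPMI-8402, LINC01550, with -0.49 and 0.39, and LOC102724851, with -0.60 and 1.0. LINC01550 did not meet the opposite rule in 17 of the 25 alternative fits and LOC102724851 in 4. Picked after their values were seen, LZTFL1, a ciliary trafficking protein, had -1.05 and 0.23, CD83, a surface protein of activated lymphocytes, had -0.58 and 0.19, and PLAGL1, a zinc finger factor, had -0.19 and 0.37. Probe sets of EIF3C, PMS2P2 and BMS1P20 may bind near-identical copies of these genes and are uncertain.

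The other lines changed fewer genes. Of the 77 genes, 0 rose and 1 (NOPCHAP1) fell in SUPT11, and 3 rose and 3 fell in P12-ICHIKAWA. Of the 44 genes, 0 changed in SUPT11, and 6 rose and 4 fell in P12-ICHIKAWA. Over all 7972 members, SUPT11 had 79 rises and 17 falls and P12-ICHIKAWA 405 rises and 255 falls. The share that changed in P12-ICHIKAWA was 7.79% of the 77 and 22.7% of the 44, against 8.28% of all members, with no test of these shares. GATA3 rose in P12-ICHIKAWA by 0.67, as in RPMI-8402, and FAM107B rose there by 0.57, as in TALL-1.

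The promoters of SYNE1 and RUNX2, the opposite mover of each kind whose smaller response was largest, are shown so that their letters can be read beside the values. The windows run from 250 bases before to 50 bases after the start of the gene, from RefSeq on GRCh38.p14, and capitals mark a match to a motif. SYNE1 (chr6:152637313-152637612, minus strand) held 1 match to the CARE motif (TGATGNAA), which ATF4 and CHOP bind, at bases -146 to -139, and RUNX2 (chr6:45328080-45328379, plus strand) held none of the 8 motifs searched on both strands.
SYNE1: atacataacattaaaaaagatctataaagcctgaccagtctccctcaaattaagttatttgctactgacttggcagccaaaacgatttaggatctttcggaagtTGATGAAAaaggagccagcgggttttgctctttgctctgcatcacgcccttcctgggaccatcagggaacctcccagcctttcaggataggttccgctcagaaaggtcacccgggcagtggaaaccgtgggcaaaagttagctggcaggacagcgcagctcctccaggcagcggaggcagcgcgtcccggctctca
RUNX2: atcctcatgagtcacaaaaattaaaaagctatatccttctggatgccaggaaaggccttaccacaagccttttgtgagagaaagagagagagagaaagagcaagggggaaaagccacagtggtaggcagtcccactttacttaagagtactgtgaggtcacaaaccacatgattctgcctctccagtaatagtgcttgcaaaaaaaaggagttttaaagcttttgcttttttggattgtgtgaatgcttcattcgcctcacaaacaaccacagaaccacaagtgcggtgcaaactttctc
The CARE motif stood in 2 of 69 windows of the genes that rose in TALL-1 and fell in RPMI-8402, in 0 of 36 windows of the reverse kind, in 3.67% of all 27305 windows and in 1.67% of the 6715 windows of members. The other motifs were ERSE, UPRE (TGACGTGG), SRE (TCACNCCAC), the E-box (CACGTG), the RBPJ motif (GTGGGAA), the FOXO motif (GTAAACA) and the E2F motif (TTTCCCGC). A match is a description of the letters and not a site of binding.

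CD2 and GUCY1B1 had the most positive and the most negative difference of all members. CD2, an adhesion receptor of T cells, had 11.02, 11.16 and 11.15 with NVS-ZP7-3 in TALL-1, against 11.50, 11.28 and 11.33 with DMSO. The RPMI-8402 values were 4.93, 5.48 and 5.24 with NVS-ZP7-3, against 8.70, 8.89 and 8.83 with DMSO. The response in TALL-1 was not called (-0.26 ± 0.13 (SE), adjusted p = 0.134 by limma), the fall in RPMI-8402 was 12-fold, and the difference was 3.33 ± 0.19 (SE, adjusted p = 4.37e-10 by limma).

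GUCY1B1, the beta subunit of soluble guanylate cyclase, had 2.39, 4.26 and 3.60 with NVS-ZP7-3 in TALL-1, against 7.22, 6.07 and 6.84 with DMSO. In RPMI-8402 it had 13.23, 13.19 and 13.08 with NVS-ZP7-3, against 13.03, 12.97 and 12.85 with DMSO. The highest treated TALL-1 value was on the array that carried transcripts of other lines, and the lowest was near the floor of 2.18, below which no change is seen. The difference was -3.51 ± 0.43 (SE, adjusted p = 1.01e-05 by limma).

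Among the other positive differences, GYG1, which primes glycogen synthesis, had a response of 0.44 in TALL-1 that was not called and fell by 2.28 in RPMI-8402. CHD7, a chromatin remodeller, had -0.04 in TALL-1 and fell by 2.24 in RPMI-8402. CGN, which encodes the tight junction protein cingulin, had -0.54 in TALL-1 and fell by 2.63 in RPMI-8402. All 3 genes were lower in RPMI-8402 with NVS-ZP7-3, while their responses in TALL-1 were not called. MCAM, an adhesion molecule, rose by 2.16 in TALL-1, with -0.50 in RPMI-8402, and CTH, the cystathionine lyase of cysteine synthesis, rose by 2.24 in TALL-1, with 0.15 in RPMI-8402.

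Among the negative differences, VAV3, a guanine nucleotide exchange factor, fell by 2.44 in TALL-1, with 0.04 in RPMI-8402. CXCL3, a chemokine, fell by 2.73 in TALL-1, with -0.44 in RPMI-8402. CMAHP, a pseudogene of sialic acid hydroxylation, fell by 3.10 in TALL-1 and fell by 0.74 in RPMI-8402. LINC00342 had a response of -0.98 in TALL-1 that was not called and rose by 1.17 in RPMI-8402. RUSC1-AS1 had -0.09 in TALL-1, not called, and rose by 1.95 in RPMI-8402.

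Most ER chaperones rose more in RPMI-8402 than in TALL-1. Of 22 ER chaperones and folding enzymes among the members, 20 rose in TALL-1 and 21 in RPMI-8402, and 0 fell in either line. Over all members, 24.5% rose and 23.9% fell in TALL-1, and 16.1% rose and 23.7% fell in RPMI-8402. The difference was called below 0 for 15 of the 22, against 8.78% of all members, and above 0 for 0, against 14.1%. Its median in the list was -0.45, against 0.05 over all members. The median response was 0.57 in TALL-1 and 1.03 in RPMI-8402.

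HSPA5 encodes BiP, the main ER chaperone. In TALL-1 it had 14.58, 14.61 and 14.46 with NVS-ZP7-3, against 14.21, 14.06 and 14.19 with DMSO. RPMI-8402 arrays read 14.66, 14.71 and 14.63 with NVS-ZP7-3, against 13.28, 13.23 and 13.20 with DMSO. The lines ended at nearly the same level after a 1.32-fold rise in TALL-1 and a 2.7-fold rise in RPMI-8402.

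CRELD2, an ER folding factor, had 11.12, 11.14 and 10.97 with NVS-ZP7-3 in TALL-1, against 9.72, 9.76 and 9.74 with DMSO. Its values in RPMI-8402 were 10.81, 10.84 and 10.79 with NVS-ZP7-3, against 7.75, 7.82 and 7.73 with DMSO. The 2.53-fold rise in TALL-1 and 8.26-fold rise in RPMI-8402 again left the treated lines closer than the DMSO lines. The co-chaperones SDF2L1 and DNAJB9 rose by 1.20 and 1.25 in TALL-1 and by 2.74 and 2.63 in RPMI-8402.

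The DMSO level of 20 of the 22 genes was higher in TALL-1 than in RPMI-8402. The median of TALL-1 minus RPMI-8402 was 0.24 with NVS-ZP7-3 and 0.60 with DMSO. These levels share their arrays with the responses. The count of 15 was the same without the pair of arrays that stood apart, with the ACTB covariate and with median centring.

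The ER stress element (ERSE, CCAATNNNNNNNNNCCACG), which ATF6 and NF-Y bind, is shown from these genes because most of them differed between the lines. It stood in 6 of the 21 chaperone genes with a window, against 0.0806% of all windows and 0.149% of the windows of members. Each line gives 10 bases before the match, the match in capitals and up to 10 bases after it, 5' to 3' on the strand of the match, and HSP90B1 held a match on each strand.
HSPA5: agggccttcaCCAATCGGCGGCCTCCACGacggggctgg
HSP90B1, same strand: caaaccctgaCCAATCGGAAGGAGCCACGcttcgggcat
HSP90B1, opposite strand: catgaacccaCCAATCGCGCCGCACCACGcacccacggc
CALR: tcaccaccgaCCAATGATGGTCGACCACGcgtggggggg
CANX: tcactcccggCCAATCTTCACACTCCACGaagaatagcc
CRELD2: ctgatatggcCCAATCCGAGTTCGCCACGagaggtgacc
ERO1B: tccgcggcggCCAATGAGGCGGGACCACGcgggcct
On GRCh38.p14 the HSPA5 stretch lies at chr9:125241381-125241419 on the minus strand and the CRELD2 stretch at chr22:49918544-49918582, also on the minus strand. The match was at bases -66 to -48 in HSPA5 and at -80 to -62 in CRELD2. A match did not go with one size of difference: HSPA5 had -1.04 and CRELD2 -1.71, while CANX had -0.06 and CALR -0.25, for which the difference was not called.

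Genes of ER-associated degradation and translocation rose in both lines. Of 33 XBP1-linked members, 32 rose in TALL-1, against 24.5% of all members, and 31 in RPMI-8402, against 16.1%. A difference above 0 was called for 3, against 14.1% of all members, and below 0 for 5, against 8.78%, with a median of 0.07. XBP1, the factor this list is named after, rose by 0.77 in TALL-1 and by 1.61 in RPMI-8402. ERN1, the sensor IRE1 that splices XBP1, rose by 0.82 and by 1.90. HERPUD1, a part of the degradation complex, rose by 1.21 in TALL-1 and by 2.53 in RPMI-8402, a difference of -1.32 that became 0.38 and uncalled with the mean of all its probe sets.

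**Figure D3:**
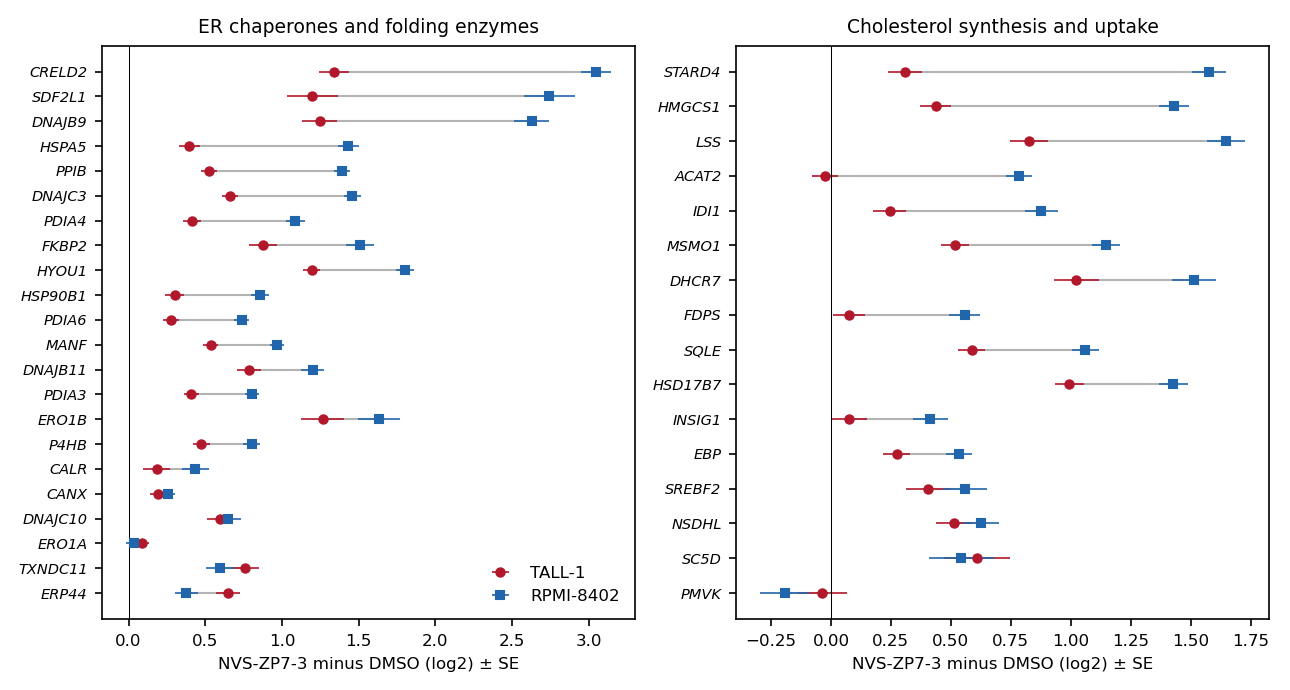
Response in TALL-1 (red circles) and in RPMI-8402 (blue squares) of each ER chaperone (left) and each cholesterol gene (right) among the members, as NVS-ZP7-3 minus DMSO in log2 with SE. The blue squares lie right of the red circles in most genes, as in HSPA5, at 0.40 in TALL-1 and 1.43 in RPMI-8402, and in HMGCS1, at 0.44 in TALL-1 and 1.43 in RPMI-8402.

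Most sterol genes also rose more in RPMI-8402. Of 16 members of cholesterol synthesis and uptake, 12 rose in TALL-1, against 24.5% of all members, and 15 in RPMI-8402, against 16.1%. A difference below 0 was called for 12, against 8.78% of all members, and above 0 for 0, with a median of -0.48. HMGCS1, the synthase before the rate-limiting step, had 14.90, 14.82 and 14.87 with NVS-ZP7-3 in TALL-1, against 14.39, 14.42 and 14.48 with DMSO. The RPMI-8402 values were 15.03, 14.98 and 14.75 with NVS-ZP7-3, against 13.49, 13.46 and 13.51 with DMSO. STARD4, a carrier of cholesterol, rose by 0.31 in TALL-1 and by 1.58 in RPMI-8402, and LSS, which closes the sterol rings, rose by 0.83 and by 1.65.

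Of 8 members of fatty acid synthesis, 2 rose in TALL-1, against 24.5% of all members, and 7 in RPMI-8402, against 16.1%. A difference below 0 was called for 6, against 8.78% of all members. FASN, the fatty acid synthase, had overlapping arrays in TALL-1, at 6.23, 6.72 and 6.52 with NVS-ZP7-3 and 6.55, 6.49 and 5.89 with DMSO. In RPMI-8402 it had 7.76, 8.38 and 7.38 with NVS-ZP7-3, against 6.19, 6.14 and 6.25 with DMSO. FADS2, a desaturase, rose by 0.54 in TALL-1 and by 1.38 in RPMI-8402. As for the chaperones, 14 of the 16 sterol genes had a higher DMSO level in TALL-1, and the median of TALL-1 minus RPMI-8402 was 0.11 with NVS-ZP7-3 and 0.63 with DMSO.

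The ATF4 and CHOP programme rose in both lines, with median responses of 0.87 in TALL-1 and 0.81 in RPMI-8402. Of 21 members, 20 rose in TALL-1, against 24.5% of all members, and 19 in RPMI-8402, against 16.1%. The difference was called for 4 members above 0, against 14.1% of all members, and 3 below 0, against 8.78%. In its called differences the list as a whole thus stood near the shares of all members. SLC7A11, the cystine transporter, rose 7.52-fold in TALL-1 and 25.6-fold in RPMI-8402. VEGFA, the endothelial growth factor, rose by 0.89 and by 2.01, and DDIT4, an inhibitor of mTORC1, rose by 0.70 and by 1.70. CTH went the other way, and so did EIF4EBP1, a translation repressor from the mTORC1 list, which rose by 1.98 in TALL-1 and by 0.47 in RPMI-8402.

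Aminoacyl-tRNA synthetases charge tRNAs and are ATF4 targets in part. Of 17 members, 11 rose and 3 fell in TALL-1, against 24.5% and 23.9% of all members. In RPMI-8402, 9 rose and 6 fell, against 16.1% and 23.7%. The difference was called above 0 for 5, against 14.1% of all members, and below 0 for 0, against 8.78%. SARS1, for serine, had 13.02, 13.00 and 12.89 with NVS-ZP7-3 in TALL-1, against 11.98, 11.74 and 11.78 with DMSO. RPMI-8402 arrays read 11.52, 11.48 and 11.71 with NVS-ZP7-3, against 11.40, 11.47 and 11.29 with DMSO, a response of 0.18 that was not called (adjusted p = 0.0729 by limma).

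DNA replication genes fell in both lines, most of them further in TALL-1. Of 36 members, 34 fell and 1 rose in TALL-1, against 23.9% and 24.5% of all members. In RPMI-8402, 21 fell and 2 rose, against 23.7% and 16.1%. The difference was called below 0 for 22 (18 without the pair of arrays that stood apart), against 8.78% of all members. It was called above 0 for 0, and its median was -0.31. The median response was -0.56 in TALL-1 and -0.24 in RPMI-8402.

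MCM2, a subunit of the replicative helicase, had 10.29, 10.61 and 10.36 with NVS-ZP7-3 in TALL-1, against 11.66, 11.26 and 11.34 with DMSO. Its values in RPMI-8402 were 12.05, 12.14 and 12.05 with NVS-ZP7-3, against 12.32, 12.30 and 12.24 with DMSO. The fall in TALL-1 was 2.0-fold, and the response in RPMI-8402 was not called (-0.20 ± 0.13 (SE), adjusted p = 0.233 by limma). E2F1, which drives these genes, fell by 0.87 in TALL-1, with -0.22 in RPMI-8402, and LIG1, the ligase of lagging strands, fell by 0.86, with -0.18. CDT1, which loads the helicase, was an opposite mover at -0.36 and 0.27, but its other probe set at log2 6 or more did not show a difference of the same sign.

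**Figure D4:**
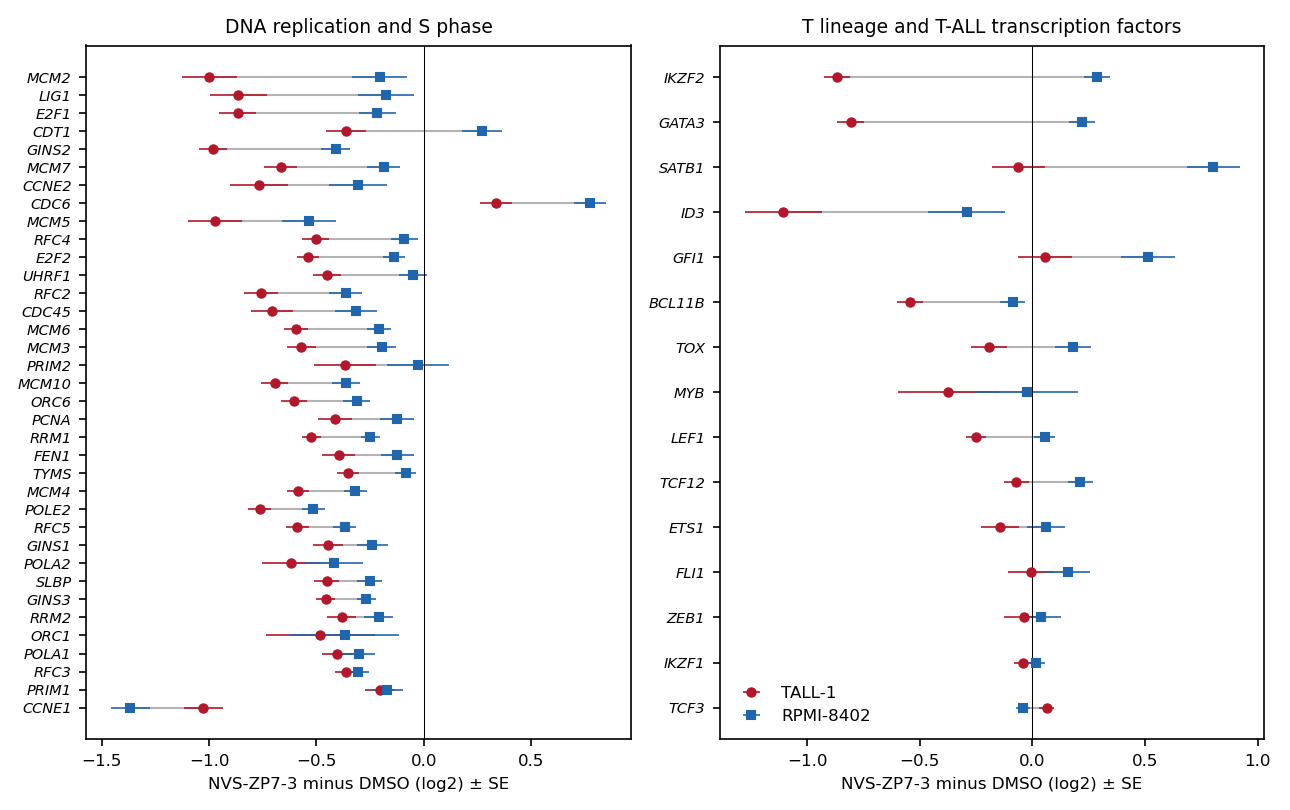
Response in TALL-1 (red circles) and in RPMI-8402 (blue squares) of each DNA replication gene (left) and each T lineage transcription factor (right) among the members, as NVS-ZP7-3 minus DMSO in log2 with SE. Red circles lie left of blue squares in most genes, as in MCM2, at -1.0 in TALL-1 and -0.20 in RPMI-8402, while in GATA3 and IKZF2 the lines lie on opposite sides of 0.

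In mitosis, 18 of 30 members fell in TALL-1, against 23.9% of all members, and 5 in RPMI-8402, against 23.7%. A difference below 0 was called for 5 (8 without RPMI-8402 NVS-ZP7-3 replicate 3), against 8.78% of all members. BUB1, a checkpoint kinase, fell by 0.56 in TALL-1, with -0.05 in RPMI-8402. CCND3, the D-type cyclin of T cell precursors, fell by 0.76 in TALL-1, with -0.19 in RPMI-8402, and CDK2 fell by 0.47, with -0.10. CCNE1, the partner of CDK2, fell by 1.03 in TALL-1 and fell by 1.37 in RPMI-8402, and its difference was not called.

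Of 15 T lineage and T-ALL transcription factors, 5 fell in TALL-1, against 23.9% of all members, and 0 rose. In RPMI-8402, 5 of them rose, against 16.1% of all members, and 0 fell. The difference was called below 0 for 8 (GATA3, LEF1, BCL11B, TCF12, IKZF2, ID3, TOX and SATB1), against 8.78% of all members, and above 0 for 0, with a median of -0.35. With the mean of all probe sets of a gene, 4 were called. SATB1, a chromatin organiser of thymocytes, had -0.06 in TALL-1 and rose by 0.80 in RPMI-8402.

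Around the T cell receptor, 2 of 17 members had a difference above 0 (CD2 and PTPN22), against 14.1% of all members, and 2 one below 0 (TRAT1 and LCK), against 8.78%, so the list stood near the shares of all members. LCK, the kinase that starts receptor signalling, fell by 0.65 in TALL-1 and by 0.19 in RPMI-8402. PTPN22, a phosphatase that restrains it, rose by 0.59 in TALL-1, with -0.28 in RPMI-8402. Of 14 immediate early genes, 4 had a difference below 0, against 8.78% of all members, and 0 above 0, against 14.1%. EGR1, an early growth response factor, fell by 1.35 in TALL-1, with -0.14 in RPMI-8402, and IER2 was an opposite mover at -0.21 and 0.28.

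Of 9 members of the Notch pathway, 5 fell and 1 rose in TALL-1, and 3 fell and 1 rose in RPMI-8402. Over all members, 23.9% fell in TALL-1 and 23.7% in RPMI-8402. NOTCH1 fell by 0.94 in TALL-1, with -0.38 in RPMI-8402, and its difference was not called (adjusted p = 0.206 by limma). HES1, a direct Notch target, fell by 0.88 in TALL-1 and by 0.33 in RPMI-8402, so further in TALL-1. NOTCH3 went the other way: it had 13.48, 13.53 and 13.70 with NVS-ZP7-3 in TALL-1, against 14.23, 14.33 and 14.19 with DMSO, and 9.35, 9.67 and 9.82 with NVS-ZP7-3 in RPMI-8402, against 11.75, 11.88 and 11.57 with DMSO. TRIB2, a pseudokinase, rose by 0.53 in TALL-1, with -0.08 in RPMI-8402.

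Ribosome biogenesis genes, many of them MYC targets, fell in both lines. Of 24 members, 15 fell and 1 rose in TALL-1, against 23.9% and 24.5% of all members. In RPMI-8402, 18 fell and 0 rose, against 23.7% and 16.1%. The difference was called above 0 for 7, against 14.1% of all members, and below 0 for 0, against 8.78%, with a median of 0.19. POLR1B, a subunit of RNA polymerase I, fell by 0.31 in TALL-1 and by 0.94 in RPMI-8402, and PES1, a nucleolar factor of the large subunit, had -0.14 in TALL-1 and fell by 0.80 in RPMI-8402.

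Of 17 FOXO and glucocorticoid-linked members, 11 rose and 3 fell in TALL-1, against 24.5% and 23.9% of all members. In RPMI-8402, 8 rose and 0 fell, against 16.1% and 23.7%. A difference above 0 was called for 7, against 14.1% of all members, and below 0 for 2, against 8.78%. It was called above 0 for 4 with the mean of all probe sets or without RPMI-8402 NVS-ZP7-3 replicate 2. TXNIP, which binds thioredoxin and curbs glucose uptake, had 11.87, 11.86 and 11.82 with NVS-ZP7-3 in TALL-1, against 10.07, 9.93 and 9.95 with DMSO. The RPMI-8402 values were 12.73, 12.72 and 12.75 with NVS-ZP7-3, against 12.24, 12.37 and 12.49 with DMSO. The rise was 3.66-fold in TALL-1 and 1.29-fold in RPMI-8402. FOXO4 rose by 1.22 and by 0.43, and CITED2, a coactivator-binding protein, by 1.07 and by 0.34.

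Of 13 zinc transporters, 8 rose and 1 fell in TALL-1, against 24.5% and 23.9% of all members. In RPMI-8402, 7 rose and 1 fell, against 16.1% and 23.7%. A difference above 0 was called for 4, against 14.1% of all members, and below 0 for 1, against 8.78%. SLC39A7, the known target of the NVS-ZP7 series, had 11.07, 10.98 and 10.90 with NVS-ZP7-3 in TALL-1, against 9.37, 9.07 and 9.21 with DMSO. In RPMI-8402 it had 10.85, 10.88 and 10.82 with NVS-ZP7-3, against 9.60, 9.61 and 9.38 with DMSO. It rose 3.41-fold in TALL-1 and 2.5-fold in RPMI-8402, and the difference of 0.45 ± 0.15 (SE) was called (adjusted p = 0.0333 by limma). SLC39A11 rose by 0.89 in TALL-1, with -0.09 in RPMI-8402, and SLC30A1, which carries zinc out of the cell, had responses of 0.62 and 0.57, with no call for its difference. Of 7 metallothionein-linked members, which bind zinc, 0 had a called difference by limma and 0 an unadjusted p below 0.05.

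In the NRF2 list, 4 of 12 members had a difference above 0, against 14.1% of all members, and 1 (SLC7A11) below 0, against 8.78%. NQO1, a quinone reductase, rose by 1.53 in TALL-1 and by 0.67 in RPMI-8402, and TXNRD1, the thioredoxin reductase, was an opposite mover at 0.18 and -0.15. In the BCL2 family of 9, BCL2, which blocks apoptosis, fell by 0.63 in TALL-1, with 0.05 in RPMI-8402. BCL2L11, its antagonist BIM, fell by 0.49 and by 0.81, and its difference of 0.32 became -0.31 and uncalled with the mean of all probe sets. MCL1 had responses of 0.00 and 0.02.

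Of 20 interferon-linked members, 4 had a difference above 0, against 14.1% of all members, and 4 one below 0, against 8.78%. HLA-B, an antigen-presenting molecule, rose by 0.80 in TALL-1, with 0.01 in RPMI-8402, where the DMSO array with blood transcripts was high at 11.85 against 11.03 and 11.05 on the other DMSO arrays. Its difference of 0.78 was 0.51 without that array. OAS3, an antiviral sensor, fell by 1.40 in TALL-1, with -0.42 in RPMI-8402.

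Several housekeeping lists differed little. Over all members, the difference was called above 0 for 14.1% and below 0 for 8.78%. Of 26 proteasome subunits, 13 fell in TALL-1, against 23.9% of all members, and 17 in RPMI-8402, against 23.7%. Of these subunits, 0 had a called difference by limma, with 1 at an unadjusted p below 0.05. Ribosomal proteins had 2 of 22 differences called, both above 0, and the respiratory chain 2 of 28, both above 0. The remaining lists had called differences above and below 0 in 3 and 0 of 22 lysosomal, 1 and 3 of 18 glycolytic, 2 and 1 of 15 mTORC1 and PI3K, 3 and 0 of 13 heat shock, 1 and 1 of 9 homing, 2 and 0 of 6 snoRNA host and 0 and 1 of 6 V(D)J recombination members.

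**Figure D5:**
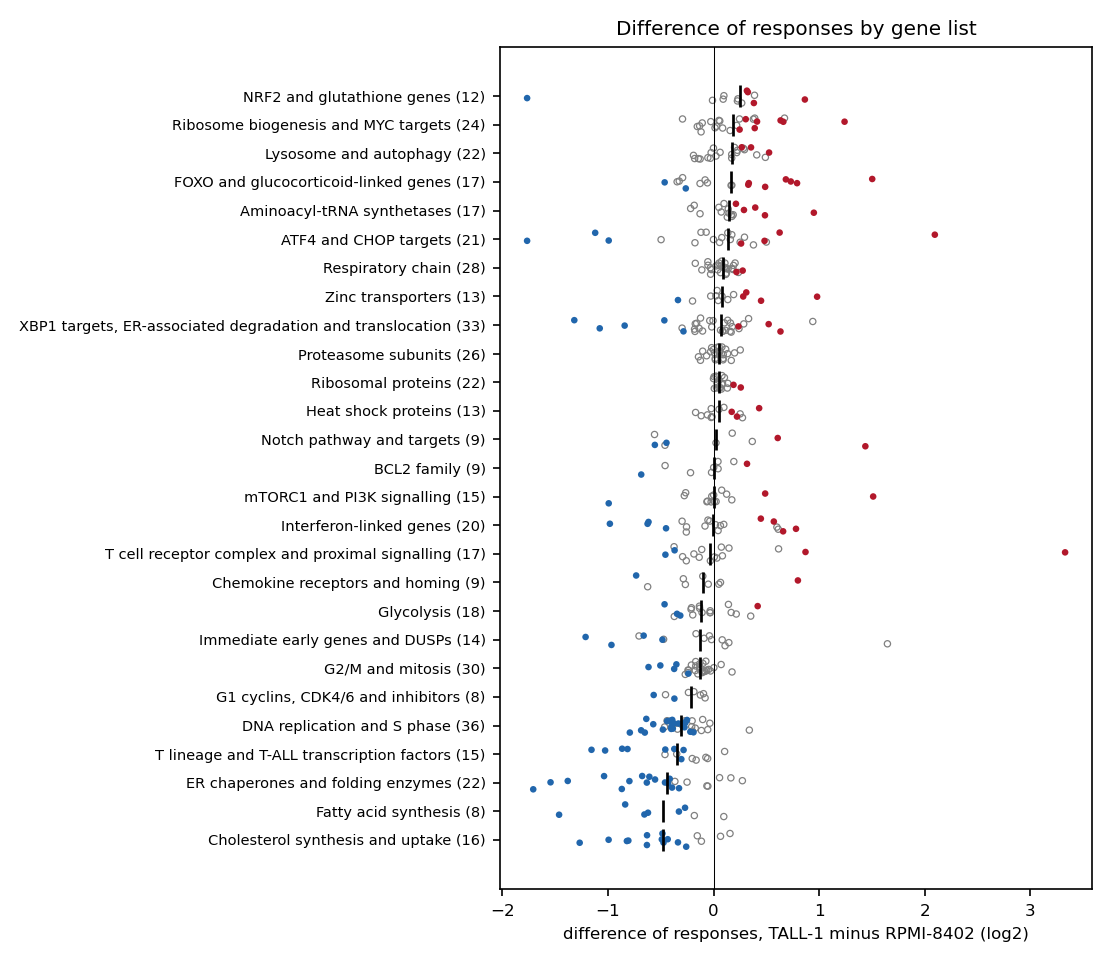
Difference of responses, TALL-1 minus RPMI-8402 in log2, of each member of the lists with at least 8 members (number in parentheses), with called differences filled (red above 0, blue below 0), others open and the list median as a bar. The medians run from cholesterol synthesis (-0.48) at the bottom, with fatty acid synthesis and then ER chaperones (-0.45) above it, to the NRF2 list (0.25) at the top, against 0.05 over all members.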

How the data were processed

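Per the labels' protocols, RNA was isolated after 16 h and biotin-labelled for Affymetrix 3' arrays. The authors deposited log2 expression values of 54675 probe sets, and GCRMA and limma, with no version, stand in the submitters' processing notes. Arrays have no read depth, so their number limits the precision. Of the probe sets, 41097 had 1 gene in the platform annotation, 1801 several and 11777 none, and 41043 of the first matched a RefSeq table on GRCh38.p14. The probe set with the highest mean stood for a gene, and genes that reached log2 4 on 3 or more arrays were tested.

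Here limma 3.58.1 in R 4.3.3 fitted 8 group means to all 24 arrays, with contrasts for each response and their difference, moderated two-sided tests and Benjamini-Hochberg adjustment over the 10661 tested genes. A value was called at an adjusted p below 0.05. SE is from this fit, and SD is over the arrays of a group. The fit of the difference was also run on simulated arrays with known differences. The opposite rule, the choice of probe sets and arrays that stood apart were not part of that run.

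The members and the gene lists were chosen with earlier results of these data known. Named genes were, by rule, up to 14 opposite movers of each kind without overlapping arrays and with the largest smaller response, the 6 most positive and 6 most negative other differences, up to 3 called members and any opposite mover of each list, and key genes (DDIT3, TRIB3 and NRARP were not members). Same-numbered arrays did not deviate together (correlations of -0.219 to -0.074 over 6 pairs), so the numbers were not taken as pairs.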

Additional observations from a re-analysis of the deposited data

Results flagged for a closer look

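In each gene below the response differed between the lines by the interaction term of the limma fit. The value in parentheses is the response of TALL-1 minus the response of RPMI-8402 in log2.

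Among genes that rose in TALL-1 and fell in RPMI-8402, the differences were those of SYNE1 (2.256), RNF144B (1.822), RIDA (1.47), LIAT1 (1.632), FAM107B (1.356), GRN (1.417), NABP1 (1.237), MXI1 (1.115), THRA (1.502), THG1L (1.084), POP1 (1.471), NFIA (1.393), NOPCHAP1 (1.025) and UBXN8 (1.036). These 14 were picked among opposite movers without overlapping arrays.

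Among genes that fell in TALL-1 and rose in RPMI-8402, the differences were those of RUNX2 (-2.015), ARHGAP33 (-2.285), GABPB1-AS1 (-1.46), DNASE1 (-1.784), LOC102724851 (-1.594), TSPOAP1 (-2.478), GRK3 (-1.026), SLC4A4 (-2.418), VAMP1 (-0.917), LINC01550 (-0.881), SMIM13 (-0.787), IGF2R (-0.772), DGKA (-0.723) and ATP2B4 (-1.033). The same rule picked these 14.

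Among the other members, the most positive differences were those of CD2 (3.33), GYG1 (2.718), MCAM (2.662), CHD7 (2.198), CTH (2.096) and CGN (2.09). The most negative were those of GUCY1B1 (-3.509), VAV3 (-2.476), CMAHP (-2.36), CXCL3 (-2.291), LINC00342 (-2.15) and RUSC1-AS1 (-2.036). In GUCY1B1 and VAV3 the treated TALL-1 arrays lay below log2 5, near the floor, so part of the fall may not be seen. The same limit holds for GYG1 and CGN, whose treated RPMI-8402 arrays lay below log2 5.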

How the results depend on the processing

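The 4 counts were 1124 members with a difference above 0, 700 below 0, 77 that rose in TALL-1 and fell in RPMI-8402 and 44 of the reverse kind. At an adjusted p below 0.01 they were 555, 352, 28 and 16, and with a size of at least 0.5 they were 503, 325, 12 and 7. The last count was 29 with no filter on tested genes. With the ACTB measure in the model the opposite counts were 24 and 15, and without the pair of arrays that stood apart (chosen after seeing the data) 58 and 27. Leaving out 1 array gave 53 to 123 for the first kind and 27 to 45 for the second, and 789 to 1380 and 548 to 729 for the differences. The cause of these changes was not tested. With the mean of all probe sets, the difference of HERPUD1 was 0.377 and that of BCL2L11 -0.307, neither called. Of the 122 named genes, 106 kept sign and side of the threshold, 12 were weaker and these 2 turned sign. Not all named genes were compared in that fit, which covered 26 of the 28 named opposite movers. The counts with quantile normalization, median centring, another prior, other level rules or the arrays of both lines alone lay within 1.5 times the counts given first. With the replicate number as a block the counts were 1092, 705, 82 and 44, and with line and number as a block 876, 571, 62 and 39. Signal near the floor of 2.18 limits how far a fall can be seen.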
